A study of Mus musculus with 20 samples.

Results

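The tripartite motif (Trim) family was followed across 20 single-colour arrays. Its members were every gene whose probe name was Trim, a number and an optional letter, each read through its brightest probe, which gave 66 genes of the 22440 named genes on the array. They were carried by 99 probes of 39429, and 28 members had more than 1 probe.

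Arrays came from mice labelled Irgm1-/- and wild type (WT), all on a C57BL/6 background and housed in a specific pathogen-free barrier facility. The gene they lack by their label, Irgm1, makes a GTPase of the immunity-related family, and the comparison asks which interferon-stimulated genes were raised without it. Salivary gland was sampled as whole tissue from 4 mice per genotype, all female, aged 9 weeks in the Irgm1-/- group and 6 or 7 weeks in the WT group. Small intestine was whole duodenum from 3 mice per genotype, and colonic macrophages were isolated cells from 3 per genotype. In both of these tissues the ages were 6, 6 and 8 weeks in each genotype, the Irgm1-/- group was 2 males and 1 female, and the WT mice were all female. The same 6 animals gave the intestinal and the macrophage RNA. Genotype therefore cannot be told apart from age in salivary gland, sex differed in part between the genotypes of the other tissues, where the female Irgm1-/- mouse was replicate 3, and tissue cannot be told apart from scan day.

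TRIM proteins carry a RING domain, B-boxes and a coiled coil, and most act as E3 ubiquitin ligases that attach ubiquitin or related tags to other proteins. The end of the protein sets the subfamily: a PRY-SPRY domain in many antiviral members, NHL repeats, a PHD finger with a bromodomain, or a COS box that binds microtubules. Some members help cells sense viral RNA or restrict viruses and are themselves induced by interferon, whereas others act in transcription, in nerve, in muscle or in development. In the mouse, Trim5, Trim6, Trim12a, Trim12c, Trim30a to Trim30d, Trim34a and Trim34b lie together on chromosome 7. RefSeq places these 10 genes within a run of 18, with 8 other genes between them.

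Promoters of cluster and antiviral members are shown first where they hold the core of the interferon-stimulated response element (ISRE), the DNA element bound by the interferon-activated factors, whether or not the gene passed a test. Sequences are those of RefSeq on GRCm38.p6, 5′ to 3′ on the strand of the gene, and the window searched ran from 250 bases before to 50 after each annotated start. Capitals mark a match to GAAANNGAAA, the ISRE core, on either strand. Stretches before the start are shown for Trim30a, Trim30d, Trim12c and Trim5, each ending 1 base before it, and for Trim26, ending 91 bases before it.
Trim30a, chr7:104465194-104465289, minus strand: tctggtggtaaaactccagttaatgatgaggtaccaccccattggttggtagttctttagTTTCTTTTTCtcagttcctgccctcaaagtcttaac
Trim30d, chr7:104507850-104507950, minus strand: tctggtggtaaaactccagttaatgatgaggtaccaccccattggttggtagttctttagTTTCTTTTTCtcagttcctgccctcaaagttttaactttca
Trim12c, chr7:104353350-104353438, minus strand: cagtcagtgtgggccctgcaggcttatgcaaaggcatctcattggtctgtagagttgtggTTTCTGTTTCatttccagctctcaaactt
Trim5, chr7:104288107-104288215, minus strand: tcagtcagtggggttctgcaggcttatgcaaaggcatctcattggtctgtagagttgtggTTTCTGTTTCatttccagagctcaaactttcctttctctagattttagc
Trim26, chr17:36836926-36837055, plus strand: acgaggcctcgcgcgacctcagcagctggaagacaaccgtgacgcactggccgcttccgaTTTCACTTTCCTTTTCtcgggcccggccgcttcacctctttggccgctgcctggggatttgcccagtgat

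In Trim34a, Trim12a and Trim21 the match lay after the annotated start, and 30 bases around it are shown.
Trim34a, chr7:104244460-104244489, plus strand: tttggagTTTCAGTTTCttttctctgcagt
Trim12a, chr7:104315463-104315492, minus strand: gttgtggTTTCTGTTTCatttccagagctc
Trim21, chr7:102565447-102565476, minus strand: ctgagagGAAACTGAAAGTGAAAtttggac

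The Trim30a and Trim30d stretches were 99% identical over 96 bases, and those of Trim12c and Trim5 were 84.3% identical over 89. A promoter entry existed for 51 of the 66 members. The ISRE core stood in 9 of these 51 (17.6%), against 1079 of 27025 genes with a promoter (3.99%). Of the 10 cluster genes, 6 held it (Trim5, Trim12a, Trim12c, Trim30a, Trim30d and Trim34a), and Trim6, Trim30b, Trim30c and Trim34b did not. Of the other antiviral members, 2 of 5 with an entry held it (Trim21 and Trim26), and elsewhere in the family only Trim2 did, among 36 with an entry. Trim47, past the test in salivary gland, was without it, and Trim14 had no entry. The longer form GAAANNGAAACT, which contains the core, was in 3 members (5.88%) against 0.303% of all genes. Those 3 were Trim30a, Trim30d and Trim34a. The element TTCCNGGAA, bound by STAT dimers, was in 1 member, Trim15 (1.96%), against 1.35% of all genes. A match describes letters in this window and is not evidence of binding.

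The precision of the arrays differed between tissues. Salivary arrays were dimmest, with a 75th percentile of the processed signal of 130.2 to 1022 and 25.2% to 48.7% of probes well above background. The ranges were 2322 to 4690 and 52.6% to 62.1% for intestinal arrays, and 922.4 to 2137 and 57% to 74.2% for macrophage arrays. In small intestine the percentile was 3868 to 4690 in the Irgm1-/- group and 2322 to 3204 in the WT group, with no overlap. The Irgm1 probe itself read higher in the arrays labelled Irgm1-/- by 2.64, 1.16 and 0.88 on the log2 scale in salivary gland, small intestine and macrophages, and passed the test in the first and second (adjusted p = 0.00041, 0.037 and 0.259, limma). The probe was not placed against the deleted stretch, so it does not check the labels, and each direction below is that of the arrays as labelled. As a yardstick, 35 genes of the type I interferon response were read in the same fits. In salivary gland 24 of 24 tested were higher at adjusted p below 0.05 in limma (median 3.09 on the log2 scale), against 2.67% of all genes tested. The counts were 13 of 35 in small intestine (median 1.42, against 0.216%) and 4 of 33 in macrophages (median 1.02, against 0.0434%). Regardless of the test, the difference was positive in 24 of 24, 35 of 35 and 32 of 33, against 57.6%, 36.6% and 60.4% of all genes tested. Well above background on every array of these tissues were 13, 33 and 25 of the 35. The others could enter the test mainly or only through the Irgm1-/- group, which favours a positive difference.

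Levels below are log2 processed signal minus the 75th percentile of the array, so 0 is the level of a probe at that percentile. Differences are Irgm1-/- minus WT, tested by limma with Benjamini-Hochberg adjustment over all genes tested in the tissue, and "past the test" means adjusted p below 0.05. In counts, rose and fell mean past the test in that direction. Levels of different genes come from different probes and are not compared.

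Detection set which members could be tested. Of the 66 genes, 13 were well above background on all 20 arrays, among them Trim28, a corepressor that silences endogenous retroviruses, Trim24, Trim27, Trim25, Trim56 and Trim47. On no array were 4 members detected by any probe: Trim52, Trim58, Trim66 and Trim67. Trim17, Trim54 and Trim75 were detected on too few arrays, so 7 members were tested in no tissue. The number tested was 22 in salivary gland, 45 in small intestine and 53 in macrophages. In all 3 tissues 19 members were tested, in intestine and macrophages only 20, in macrophages only 13, in small intestine only 4 (Trim5, Trim21, Trim23 and Trim38), and in salivary gland and macrophages only 1, Trim29.

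**Figure D1:**
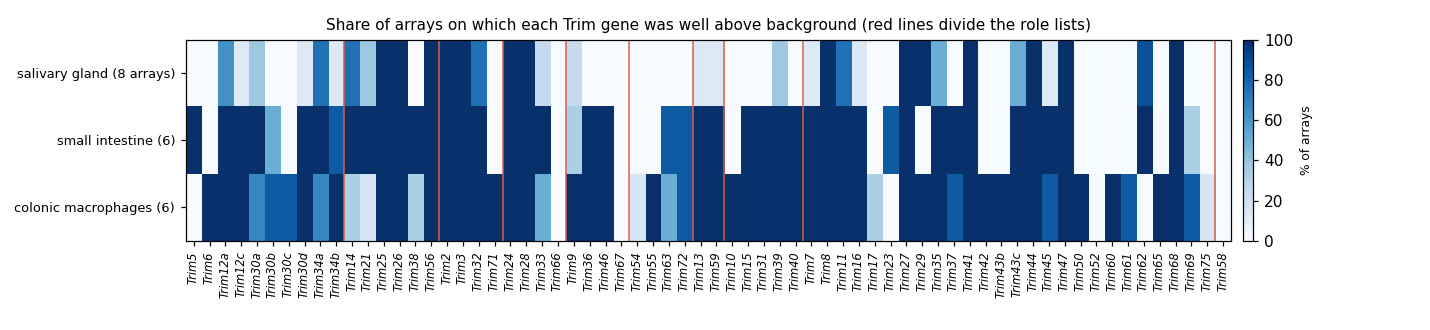
Share of arrays (colour, in %) on which each of the 66 Trim genes (columns, ordered by role) was well above background, in salivary gland (8 arrays), small intestine (6) and colonic macrophages (6). The chromosome 7 cluster, at the left, was mostly below background in salivary gland and mostly detected elsewhere, and 13 genes were detected on all 20 arrays.

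In salivary gland 4 of 22 members tested rose in the Irgm1-/- group and 0 fell, against 2.9% of 9485 genes past the test in either direction (2.67% higher, 0.232% lower). They were Trim34a, Trim12a, Trim14 and Trim47. The median difference was 0.22 over the 22 members and 0.06 over all genes tested. At unadjusted p below 0.05 there were 9 of 22 members, against 22.7% of all genes.

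Trim34a is a SPRY-type gene of the chromosome 7 cluster that interferon induces. It read -1.66, -2.61, -2.90 and -2.81 in the 4 Irgm1-/- glands and -4.61, -4.76, -4.32 and -4.57 in the WT glands, with WT replicates 3 and 4 not well above background. The groups lay over 1 log2 unit apart at their nearest. The difference was 2.07 (SE 0.26, adjusted p = 0.00288), and it was 2.56 on one slide and 1.59 on the other.

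Trim12a is a cluster gene related to Trim5, a restriction factor against retroviral capsids. It read -1.34, -2.30, -2.51 and -2.83 in the Irgm1-/- glands and -4.43, -4.52, -4.06 and -4.89 in the WT glands, where only replicate 1 was well above background. The groups did not overlap, and the difference was 2.23 (SE 0.31, adjusted p = 0.00512), with 2.66 and 1.80 on the 2 slides. Under normexp background correction it was smaller and not past the test (1.10, adjusted p = 0.118).

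Trim14, which lacks a RING domain and acts as an adaptor at mitochondria in antiviral signalling, was the only other antiviral member past the test. It read -1.59, -2.36, -2.77 and -2.95 in the Irgm1-/- glands against -3.70, -4.05, -4.14 and -4.16 in the WT glands, the last pair not well above background. The groups did not overlap. The difference was 1.60 (SE 0.28, adjusted p = 0.0175). The test was not passed under normexp background correction (adjusted p = 0.0614), with no filter on dim probes (0.0917) or when any 1 of 3 arrays was left out (0.0596 to 0.0698). With the mean of its 3 probes in place of the brightest the difference was 0.18 (adjusted p = 0.508), the other probes being below background on 7 and 8 of the 8 arrays.

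Trim47, a SPRY-type ligase outside both lists, read -1.36, -1.99, -2.21 and -2.26 against -2.92, -3.04, -2.78 and -3.07, well above background on every array. The Irgm1-/- glands were all higher than the WT glands. Its difference was 0.99 (SE 0.20, adjusted p = 0.0374), and its second probe gave 1.003. The test was not passed under normexp background correction (adjusted p = 0.0763), with no filter on dim probes (0.172) or with the mean of its probes (0.0523). Nor was it passed with arrays scaled to their median (0.365) or when any 1 of 4 arrays was left out (0.0789 to 0.107).

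The same gland, Irgm1-/- replicate 1, was highest for all 4 genes. That array also had the highest 75th percentile (1022, against 154.2 to 364.4 in the other Irgm1-/- glands) and the largest share of probes above background (48.7%). Without it the 4 differences were 1.79, 1.93, 1.32 and 0.79 for Trim34a, Trim12a, Trim14 and Trim47, and all remained past the test (adjusted p = 0.000224 to 0.012).

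Trim30a, an interferon-induced cluster gene known to restrain Toll-like receptor signalling, was left untested here because it was well above background on 3 of 8 arrays. It read -2.08, -3.27, -3.85 and -3.90 in the Irgm1-/- glands, where replicate 4 was below background, and -7.26, -7.13, -6.18 and -5.95 in the WT glands, all below background. With the WT glands set at the detection floor, it read 2.41-fold higher in the Irgm1-/- group. That floor is, per array, the lowest signal of any probe well above background, or the probe's own signal where that was higher. Irgm1-/- replicate 4 entered at its own reading though below background, so the fold is not a strict lower bound. With no filter on dim probes the fitted difference was 3.35 (adjusted p = 0.0259). Its WT side is made of readings below background, so that size is not a measured fold.

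Trim21, a cytosolic antibody receptor that targets bound viruses for degradation, had the same detection. It read -2.79, -3.49, -3.70 and -3.77 in the Irgm1-/- glands, the last not well above background, and -5.03, -5.14, -5.68 and -5.01 in the WT glands, all below it. Trim21 read 2.06-fold higher by the same measure, with the same limit from replicate 4. Its fitted difference with no filter was 1.78 (adjusted p = 0.0315), again with a WT side made of readings below background. The other 7 cluster genes were below background on 7 or 8 of the 8 salivary arrays by their brightest probe and give no comparison, and Trim38 was below background on all 8. A second probe of Trim12c was above background in Irgm1-/- replicates 1 and 2, at -3.84 and -4.82, and in none of the WT glands, with overlap between the groups.

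Trim25, the ligase that ubiquitinates the RNA sensor RIG-I, was read by 2 probes that disagreed. Its brightest probe carries a run of 1 dinucleotide up to near its end, shown here because it is the only member probe with so long a run.
Trim25 probe, bases 30 to 59 of 60: TGTGTGTGTGTGTGTGTGTGTGTGTGTGTG

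That probe read -1.06, -0.52, -0.87 and -0.71 in the Irgm1-/- glands and -0.38, -0.38, -0.58 and -0.68 in the WT glands, a difference of -0.28 (adjusted p = 0.268). The other Trim25 probe read 1.63, 1.10, 1.05 and 1.12 against -0.34, -0.54, -0.24 and -0.38. The second set did not overlap, and fitted probe by probe it was 1.60 higher in the Irgm1-/- group (SE 0.15, adjusted p = 0.000768). In that fit 288 of 13650 probes were higher (2.11%).

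The effects of the 2 Trim25 probes differed by 1.89 in salivary gland, and the exact permutation p of 0.0286 (two-sided, 70 splits) is the smallest that 4 against 4 allows. In macrophages they differed by 0.80 and in small intestine by -0.19 (exact permutation p = 0.1 and 0.6, where 3 against 3 cannot go below 0.1). The probes also ordered the tissues differently, each tissue being scaled to its own percentile: the run probe read 2.68, 2.47 and 3.30 against 3.25, 1.79 and 2.35 in small intestine and 7.08, 7.00 and 6.64 against 7.17, 6.97 and 6.94 in macrophages. The other probe read 4.50, 4.81 and 4.65 in the Irgm1-/- intestines, overlapped with the WT intestines and differed by 0.17. In macrophages it read 2.94, 2.54 and 2.74 against 2.36, 2.23 and 1.59, with every Irgm1-/- sample above every WT sample and a difference of 0.68. The only other probe pair given the permutation test was that of Trim56. Its exact permutation p was 0.229 in salivary gland, 0.2 in small intestine and 0.5 in macrophages. These p-values make no allowance for the choice of pairs.

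A dinucleotide run of 20 bases or more was present in 88 of 39429 probes on the array (0.223%). For the salivary arrays their median level was 0.46 (Irgm1-/-) and 0.73 (WT), for the intestinal arrays 3.05 and 3.22, and for the macrophage arrays 7.44 and 7.55. The same medians over all probes were -6.32 and -6.16, -3.55 and -3.70, and -2.09 and -2.10. Their median difference between genotypes in salivary gland was -0.27, with quartiles of -0.33 and -0.18, next to -0.28 for the Trim25 run probe. The part of the run in the Trim25 reading was not tested.

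**Figure D2:**
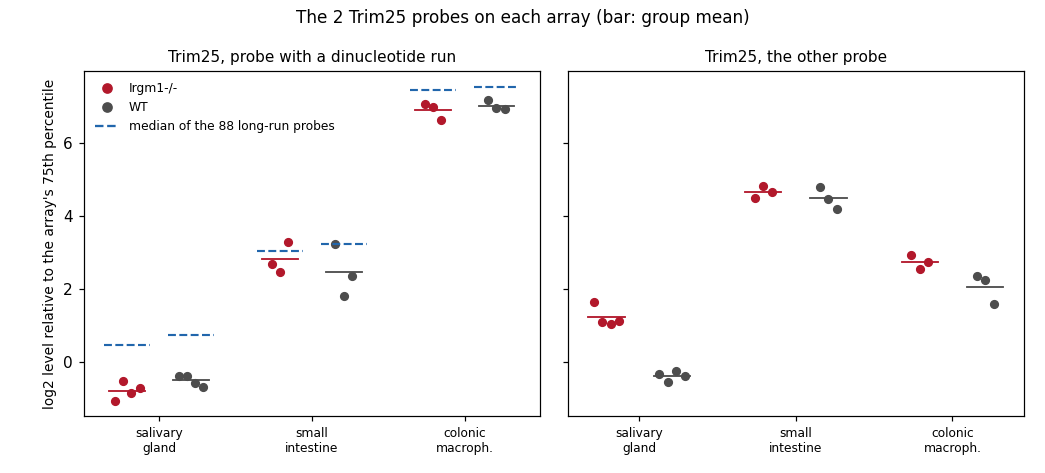
Level of the 2 Trim25 probes (log2, relative to the 75th percentile of the array) on each array by tissue and genotype, with group means as bars and, on the left, the median of the 88 probes with a long dinucleotide run as a dashed line. In salivary gland the probe without the run lies between 1.05 and 1.63 in the Irgm1-/- group and between -0.54 and -0.24 in the WT group, whereas the run probe overlaps.

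Trim56, a ligase that promotes antiviral signalling from DNA and RNA sensors, did not pass the test in salivary gland. It read -0.34, -0.44, -1.11 and -0.44 in the Irgm1-/- glands and -1.07, -1.63, -1.08 and -1.10 in the WT glands, and the groups overlapped through Irgm1-/- replicate 3. The difference was 0.64 (adjusted p = 0.129), and without that array it was 0.82 (adjusted p = 0.0443). The other Trim56 probe differed by 0.91 over all 8 arrays, also not past the test probe by probe. Trim26, which acts on the interferon factor IRF3, read -0.23, -0.29, -0.56 and -0.26 against -0.92, -0.91, -0.50 and -0.59, and the groups overlapped. Its difference was 0.39 (adjusted p = 0.154).

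Of the members outside the cluster and antiviral lists, 16 were tested in salivary gland and 1, Trim47, passed (median difference 0.18). Trim35, a SPRY-type ligase, came next with -3.04, -3.90, -4.27 and -4.08 against -4.82, -5.01, -4.51 and -4.90. Its groups did not overlap, but 1 Irgm1-/- and 3 WT values were not well above background, and the difference of 0.99 was not past the test (adjusted p = 0.0776). Trim29, an epithelial and macrophage member without a RING domain, differed by 0.70 (adjusted p = 0.144). Trim32, an NHL-repeat ligase of muscle, differed by 0.26 and Trim24, a PHD-bromodomain coregulator of nuclear receptors, by -0.22 (adjusted p = 0.221 and 0.359).

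In salivary gland 7 members were higher without overlap between groups (against 11.4% of genes tested) and 1, Trim27, was lower without overlap (3.36%). Among the 7, Trim12a and Trim35 met the filter on dim probes mainly through the Irgm1-/- glands. Trim27 read -1.38, -1.24, -1.39 and -1.21 against -0.95, -1.06, -1.12 and -1.12, a difference of -0.24 (adjusted p = 0.206). The least shift was in Trim62, Trim28 and Trim2, with differences of 0.01, -0.02 and -0.04. Trim28 read -1.54, -1.93, -1.91 and -2.20 against -1.71, -1.74, -1.88 and -2.17, so its groups overlapped fully.

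Markers of other cells moved with genotype in the gland. Of 10 resident macrophage markers tested, 5 rose (C1qa, C1qb, C1qc, Folr2 and Mrc1; C1qa by 1.67), and their summed level was 9.56 to 19.1 times the percentile in the Irgm1-/- glands and 5.58 to 11.7 in the WT glands. Cd163 was below background on all 8 arrays. Of 4 T and NK cell markers tested Gzma, a granzyme, rose by 2.50 (adjusted p = 0.000684), and that list summed to 3.12 to 5.61 against 1.90 to 3.14. The salivary acinar sum was 52.6 to 220.2 against 223.3 to 300.9, and Lpo, 1 of 7 tested, fell. Fewer cells of a type and less RNA per cell cannot be told apart in these bulk samples. The part of the marker shifts in the Trim differences was not tested.

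In small intestine 1 of 45 members tested rose and 0 fell, against 0.216% of 14788 genes past the test, all of them higher. It was Trim30a. The median difference was -0.05 over the 45 members and -0.10 over all genes tested. At unadjusted p below 0.05 there were 9 of 45 members, against 7.07% of all genes.

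Trim30a read 0.30, 0.34 and 0.33 in the Irgm1-/- intestines and -1.31, -1.80 and -1.84 in the WT intestines. The Irgm1-/- values, that of the female included, were nearly equal and lay far above the WT values. The difference was 1.97 (SE 0.18, adjusted p = 0.0142), with 1.62 and 2.15 on the 2 slides. With the mouse number as a replicate block the size stayed but the call was lost (adjusted p = 0.0786), as it was when any 1 of 5 of the 6 arrays was left out (0.0702 to 0.170).

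Of the 10 cluster genes 8 were tested in small intestine, and only Trim30a passed. They are close relatives, and hybridisation of one to the probe of another was not tested. Trim30b passed the filter on dim probes through the Irgm1-/- arrays alone, which sets its direction. The other 7, detected in both genotypes, all had positive differences with no overlap between groups, where 36.6% of all genes tested were positive and 4.74% were higher without overlap. No member outside the cluster was higher without overlap. The median difference was 1.71 over these 7 (1.66 over the 8), and without WT replicate 1 it was 1.01 (1.04).

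Marker sums of other cells also stood apart in small intestine. Resident macrophage markers summed to 30.7 to 41.6 times the percentile in the Irgm1-/- intestines and 25.0 to 30.3 in the WT intestines, and B and plasma cell markers to 41.8 to 60.7 against 28.4 to 37.8. Enterocyte markers summed to 320.5 to 341.9 against 381.3 to 454.6. The median differences of the single markers were 0.42, -0.18 and -0.37, so that of the B and plasma cell list had the opposite sign to its sum. None of the 11, 6 and 8 markers tested passed in limma (7, 2 and 3 at unadjusted p below 0.05), and Cd163 was below background on all 6 arrays. Their part in the Trim differences was not tested.

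Trim34a read 1.09, 0.82 and 1.09 against -0.00, 0.10 and -0.25, a difference of 1.05 (adjusted p = 0.120). Trim12a read 1.87, 2.02 and 2.33 against 1.61, 1.64 and 1.16, a difference of 0.61 (adjusted p = 0.653). For Trim5 the values were -3.35, -3.39 and -3.24 against -3.64, -3.58 and -4.13, a difference of 0.46 (adjusted p = 0.662). In each of these 3 the groups lay close but apart.

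WT replicate 1 set the spread of 3 other cluster genes. Trim30d, whose promoter stretch nearly matches that of Trim30a, read -0.87, -0.88 and -0.40 against -4.18, -2.19 and -2.15, a difference of 2.13 (adjusted p = 0.530). Trim12c read -1.21, -1.15 and -0.59 against -4.11, -1.82 and -2.17, a difference of 1.72 (adjusted p = 0.662). Trim34b read -1.50, -1.66 and -1.15 against -4.86, -2.11 and -2.47, with WT replicate 1 not well above background and a difference of 1.71 (adjusted p = 0.662). In all 3 the WT value furthest down was that of replicate 1, and without it the differences were 1.45, 1.01 and 0.85, still not past the test.

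Trim30b was detected only in the Irgm1-/- intestines, at -4.01, -4.95 and -3.99, against -5.58, -5.45 and -6.76 in the WT intestines. It was at least 1.44-fold higher, with a fitted difference of 1.61 (adjusted p = 0.541). Trim30c was below background on all 6 arrays. Trim6, which makes free ubiquitin chains that activate IKK-epsilon, was below background by its brightest probe. Of its 2 other probes, 1 was also below background on all 6 arrays. The remaining probe read -4.34, -4.08 and -3.94 in the Irgm1-/- intestines and -5.43, -5.29 and -5.49 in the WT intestines, where all 3 were below background. It was at least 1.65-fold higher against the floor and differed by 1.28 in the probe-by-probe fit (adjusted p = 0.0699). Like Trim30b, this probe met the filter on dim probes through the Irgm1-/- arrays alone, which sets its direction.

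None of the 6 antiviral members passed the test in small intestine, with a median difference of 0.02. By its brightest probe Trim14 read 1.61, 1.94 and 1.68 against 1.79, 1.41 and 1.60, and its groups overlapped around a difference of 0.14 (adjusted p = 0.737). Over its 3 probes tested there the differences ran from 0.14 to 1.06, none past the test probe by probe. Trim21 read -0.14, -0.41 and -0.21 against -0.16, -0.66 and -0.74, a difference of 0.26 (adjusted p = 0.668). Trim38, a regulator of TLR and cytosolic DNA signalling, read -1.98, -1.72 and -0.55 against -0.90, -0.92 and 0.06, a difference of -0.83 with overlap (adjusted p = 0.662). Trim56 and Trim26 differed by -0.16 and -0.11.

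Outside the cluster and antiviral lists 31 members were tested in small intestine, 0 passed the test in limma, 8 had a positive difference, and the median was -0.09. The 2 members lower without overlap were Trim16, a member without a RING domain that acts at damaged membranes, and Trim8, a regulator of cytokine signalling. In the whole comparison 13% of genes tested were lower without overlap. Trim16 read 0.21, 0.02 and -0.25 against 1.08, 0.56 and 0.24, a difference of -0.63 (adjusted p = 0.662). Trim8 read 1.34, 1.39 and 1.19 against 1.57, 1.49 and 1.44, a difference of -0.19.

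By subfamily the largest differences in small intestine were 0.74 for Trim2 (NHL repeats), -0.16 for Trim28 (PHD-bromodomain), 0.07 for Trim46 (COS box), -0.31 for Trim72 (a membrane repair protein of muscle), -0.24 for Trim59 (membrane-anchored) and -0.25 for Trim15 (linked to the MHC). None of these passed the test, and their adjusted p lay between 0.668 and 0.857. Trim2 read 2.52, 3.38 and 2.80 against 0.86, 2.90 and 2.70, so its difference came with WT replicate 1 below the rest.

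**Figure D3:**
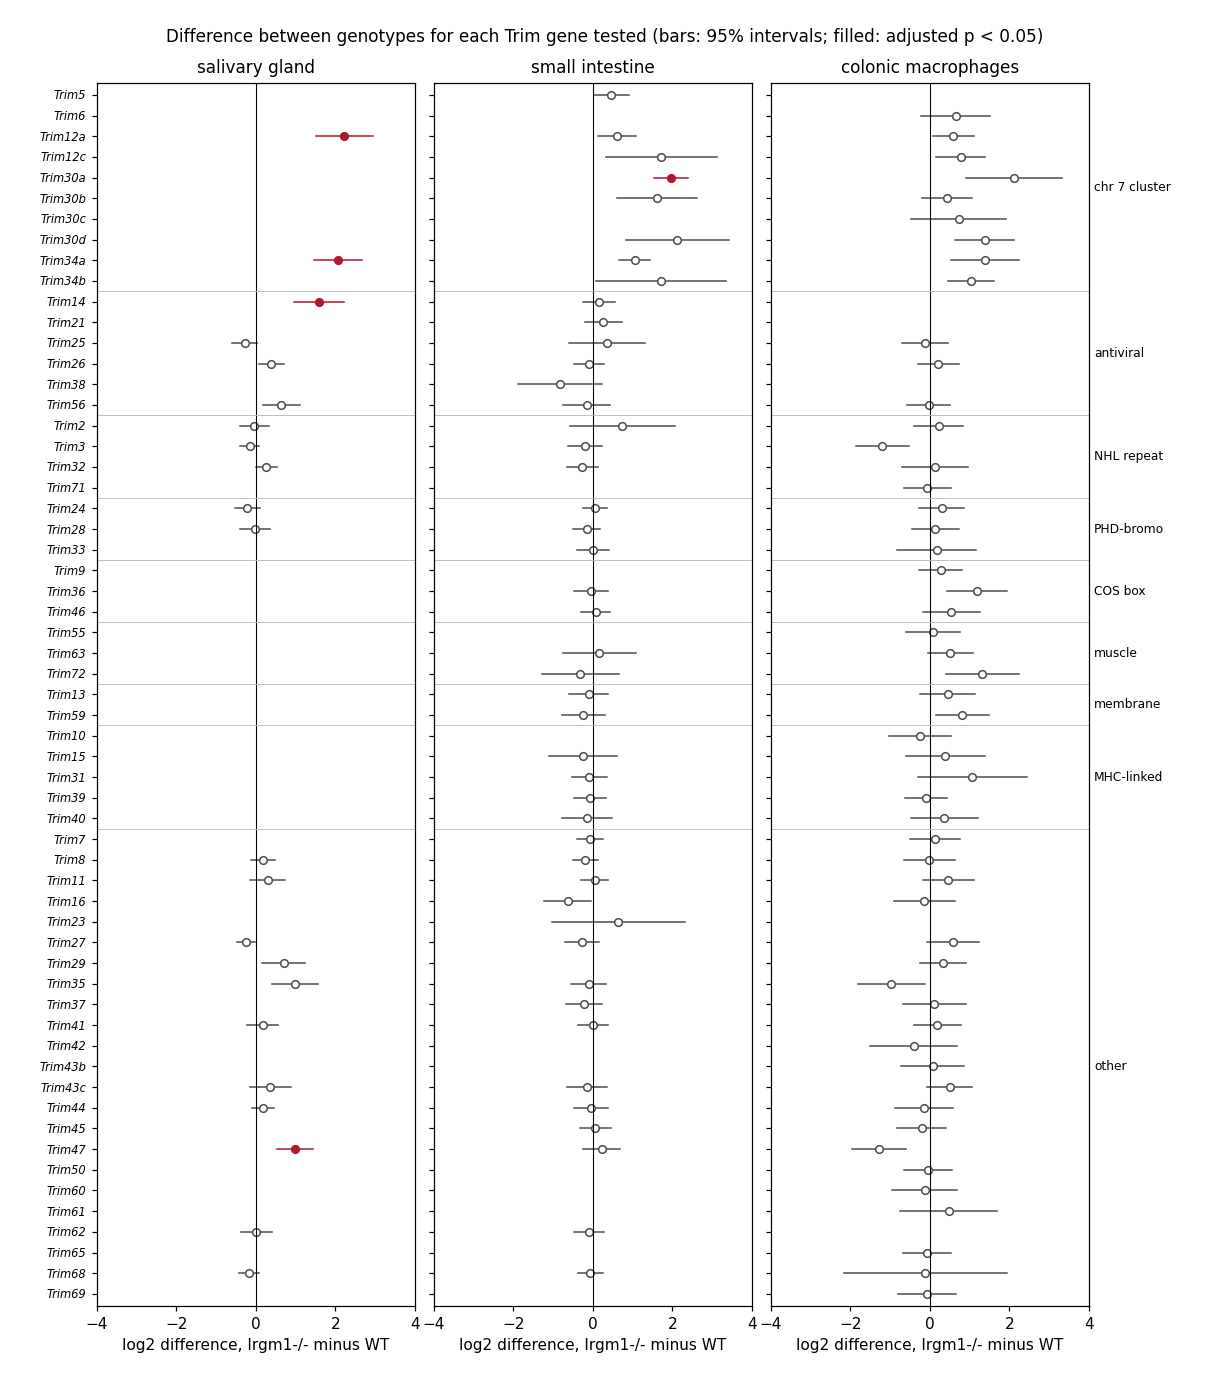
Difference between genotypes (x axis, log2, Irgm1-/- minus WT) with its 95% interval for each member tested (y axis, grouped by role) in salivary gland, small intestine and colonic macrophages. Filled points passed the test: Trim12a, Trim34a, Trim14 and Trim47 in salivary gland and Trim30a in small intestine. The cluster genes tested all lie to the right of 0 in each tissue, and Trim3, Trim35 and Trim47 have intervals below 0 in macrophages. Some members met the filter on dim probes mainly or only through the Irgm1-/- arrays, with 1 WT array or none well above background. These were Trim12a, Trim35 and Trim43c in salivary gland, Trim30b in small intestine, and Trim30a, Trim34a and Trim63 in macrophages.

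In macrophages 0 of 53 members tested passed the test in limma, against 0.36% of 16119 genes (0.0434% higher, 0.316% lower). At unadjusted p below 0.05 there were 12 members, against 12.3% of all genes. The median difference was 0.21 over the 53 members, 0.13 over the 41 of them outside the cluster and antiviral lists, and 0.09 over all genes tested. With the mouse number as a replicate block 8 members passed (1332 of 15979 genes). These were Trim30a, Trim30d, Trim34a, Trim34b and Trim36, which were higher, and Trim3, Trim35 and Trim47, which were lower.

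The differences of the cluster genes were positive in 9 of 9 tested, with a median of 0.77, where 60.4% of all genes tested were positive. Trim30a and Trim34a were well above background in every Irgm1-/- sample but, among WT samples, only in replicate 2. They met the filter on dim probes through the Irgm1-/- group, which favours a positive difference in both. Trim30d read 0.55, 0.34 and 0.06 in the Irgm1-/- samples against -0.65, -0.86 and -1.67 in the WT samples. Its groups did not overlap, and the difference was 1.37 (SE 0.32, adjusted p = 0.103, or 0.0138 with the replicate block). Trim34b read -0.81, -0.55 and -1.14 against -1.89, -1.87 and -1.81, a difference of 1.02 (adjusted p = 0.114, or 0.0315 with the block).

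Trim30a read -2.39, -2.05 and -2.65 in the Irgm1-/- macrophages and -5.22, -3.11 and -5.08 in the WT macrophages, with WT replicates 1 and 3 not well above background. The difference was 2.11 (adjusted p = 0.115, or 0.0181 with the block), and without WT replicate 2, the highest WT sample, it was 2.79 (adjusted p = 0.0393). Trim34a read -2.72, -2.69 and -3.16 against -4.82, -3.43 and -4.47, a difference of 1.38 (adjusted p = 0.138, or 0.0326 with the block). Here too WT replicates 1 and 3 were not well above background. WT replicate 2 was again nearest to the Irgm1-/- samples, and the groups of both genes lay apart. The other Trim34a probe, well above background on all 6 arrays, differed by 0.81 and was not past the test probe by probe.

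Trim12a read 1.48, 1.46 and 1.47 against 0.86, 0.92 and 0.89 in macrophages, with the values of each group close together and the groups apart. Its difference of 0.58 was not past the test (adjusted p = 0.325). Trim12c differed by 0.77 without overlap (adjusted p = 0.260). Trim6, Trim30b and Trim30c differed by 0.65, 0.43 and 0.73 with overlap, and Trim5 was below background on all 6 arrays.

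Of the antiviral members, Trim14, Trim21 and Trim38 were left untested in macrophages. The brightest Trim14 probe was above background on 2 arrays, both Irgm1-/-, and read -3.83, -3.60 and -3.97 against -5.22, -5.01 and -4.64. Another Trim14 probe was above background on all 6 arrays and read -1.58, -1.51 and -1.75 against -2.51, -2.38 and -2.27. Its groups did not overlap, and in the probe-by-probe fit it differed by 0.77 without passing the test (adjusted p = 0.210). Trim21 was above background on 1 of 6 arrays and Trim38 on 2. Trim26 read 0.45, 0.46 and 0.51 against 0.31, 0.27 and 0.21, apart but only by a difference of 0.21 (adjusted p = 0.827).

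In macrophages 3 members were lower without overlap, against 9.35% of genes tested. Trim47 read -1.30, -0.47 and -1.04 against 0.10, 0.58 and 0.36, a difference of -1.28 (SE 0.30, adjusted p = 0.0995, or 0.0138 with the block), and its other probe gave -1.76. Trim3, an NHL-repeat protein of neurons, read 0.39, 1.23 and 0.67 against 2.04, 2.10 and 1.73, a difference of -1.20 (adjusted p = 0.110, or 0.0244 with the block). Trim35 read -1.05, -0.37 and -0.71 against -0.26, 1.02 and 0.02, a difference of -0.97 (adjusted p = 0.318, or 0.0416 with the block). The other probes of Trim3 and Trim35 gave -0.83 and -1.92, so the size depended on the probe.

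Higher without overlap were 13 members, against 7.68% of genes tested, and 6 of the 13 were cluster genes. Among these were Trim30a and Trim34a, which met the filter on dim probes through the Irgm1-/- group. Trim63, also among the 13, was well above background only in Irgm1-/- replicates 1 and 3 and WT replicate 3. Outside the cluster, Trim36, a COS-box ligase, read -0.18, -1.15 and -1.29 against -2.10, -1.85 and -2.20, a difference of 1.18 (adjusted p = 0.149, or 0.0486 with the block). Trim72 differed by 1.32 and Trim59, a membrane-anchored member of the endoplasmic reticulum, by 0.82 (adjusted p = 0.175 and 0.279). Trim31, an intestinal MHC-linked ligase, differed by 1.06 with overlap, and Trim24 by 0.30.

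Markers of other cells differed strongly between the macrophage groups. The summed level of 5 pancreatic acinar markers was 7.16 to 7.86 times the percentile in the Irgm1-/- samples and 133.8 to 598.1 in the WT samples, and 4 of the 5 fell. Among them Prss2 fell by 10.77 on the log2 scale. Smooth muscle markers summed to 2.88 to 4.76 against 5.52 to 9.82, and Myh11 fell by 2.97. Resident macrophage markers summed to 5.11 to 12.1 against 7.84 to 29.2, with a median difference of -1.26 over 11 tested and none past the test in limma. Their part in the Trim differences was not tested.

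Members read on nearly the same signal in both genotypes included Trim56 and Trim71 in macrophages. Trim56 read 6.66, 6.73 and 6.63 against 6.62, 6.61 and 6.89 by its brightest probe and -1.87, -2.12 and -1.94 against -1.73, -1.66 and -1.95 by the other, with overlap in each. Trim71, an NHL-repeat protein of early development, read 7.74, 7.86 and 7.32 against 7.82, 7.65 and 7.63 in macrophages and was below background in the other tissues. Among genes tested with several probes, the sign of the difference depended on the probe for 1 of 5 members in salivary gland (Trim25), for 3 of 14 in small intestine and for 2 of 15 in macrophages. Only for Trim25 in salivary gland were the probes over 1 log2 unit apart.

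**Figure D4:**
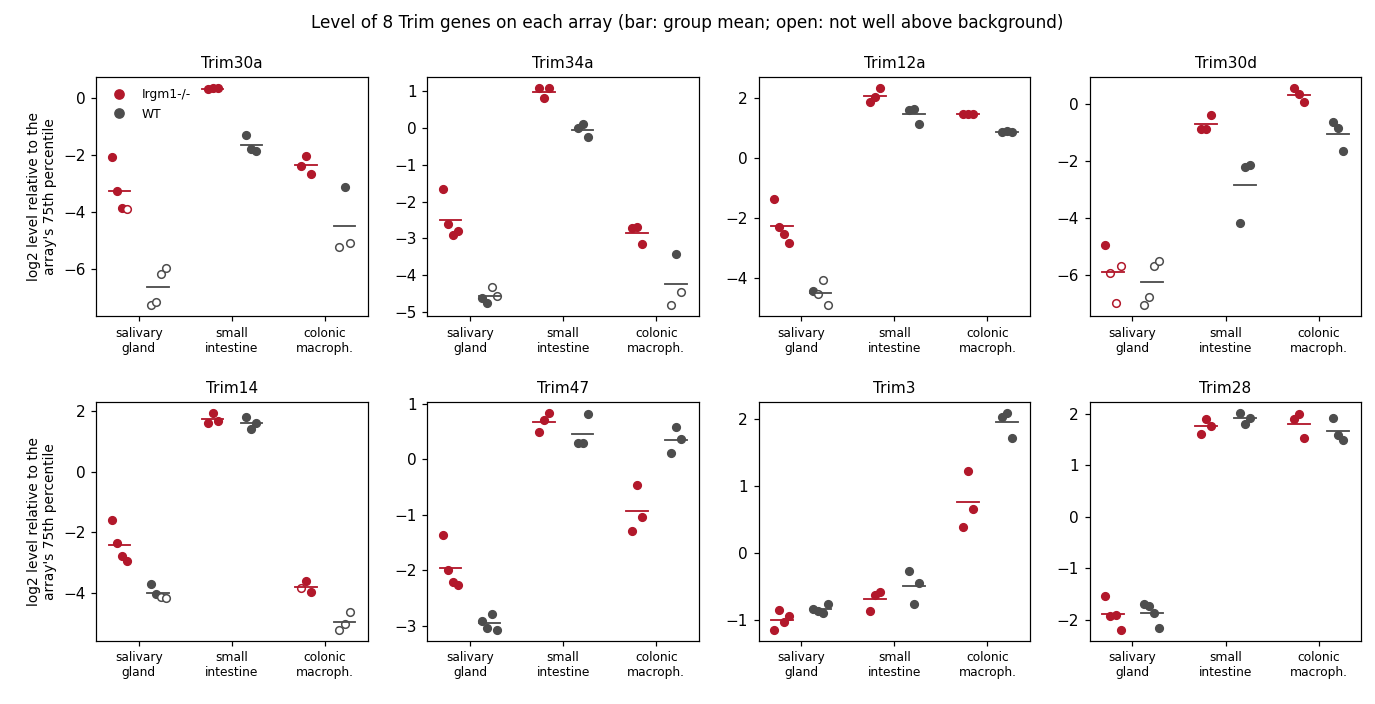
Level of 8 members (log2, relative to the 75th percentile of the array) on each array by tissue and genotype. Bars are group means and open points were not well above background. Trim30a and Trim34a lie higher in the Irgm1-/- group of each tissue, Trim47 lies higher in salivary gland and lower in macrophages, and Trim28 overlaps in all 3 tissues.

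Whether the genotype difference itself was unequal between tissues was tested in 1 fit of all 20 arrays. Between salivary gland and small intestine 1 of 21 members passed, against 0.832% of 9135 genes. Trim12a was raised 1.62 more in salivary gland (SE 0.37, adjusted p = 0.0453). Trim14, at 1.45 more by its brightest probe, did not pass (adjusted p = 0.0650). The call for Trim12a was lost under each of the 4 alternatives run on this contrast (normexp, the other percentile set, no filter and the mean of all probes), and 3 of its 4 WT gland values were not well above background.

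Between salivary gland and macrophages 5 of 20 members passed, against 9.21% of 9013 genes. Trim47 had the largest gap, 2.27 (SE 0.32, adjusted p = 0.000215), its difference being 0.99 in the gland and -1.28 in macrophages. Trim35 followed with 1.96 (adjusted p = 0.00449), then Trim12a with 1.65 (adjusted p = 0.00709) and Trim3 with 1.04 (adjusted p = 0.0124). Trim27 ran the other way, with -0.82 (adjusted p = 0.0422). It was 0.24 lower in the gland and 0.58 higher in macrophages, neither past the test within its tissue. In the gland Trim35 and Trim12a met the filter on dim probes mainly through the Irgm1-/- group, with only WT replicate 1 well above background.

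Between small intestine and macrophages 1 of 39 members passed, against 2.06% of 13027 genes. It was Trim47 again, with 1.50 (adjusted p = 0.0355), and Trim3, with 0.997, did not pass (adjusted p = 0.0727). This fit did not use that the same 6 animals gave both tissues. With the animal as a random block 2 members passed (589 of 12849 genes). The comparisons share arrays of 1 tissue pairwise, and the marker differences given above for each tissue enter them, the resident macrophage markers with medians of 0.86 in salivary gland, 0.42 in small intestine and -1.26 in macrophages.

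Genes that work with the antiviral members were read from lists of their own. Of 11 genes of RIG-I signalling, around Trim25, 4 of 9 tested rose in salivary gland: Dhx58 by 2.79, Ifih1 by 1.84 and Ddx58 (RIG-I itself) by 1.81, all RNA sensors, and Zc3hav1, an antiviral zinc finger protein, by 0.77. Only Dhx58 rose elsewhere, by 1.97 in small intestine and 2.18 in macrophages. Of 8 nuclear body proteins and TRIM proteins that carry another symbol, 0 passed the test in limma in any tissue. The largest differences there were 1.05 for Sp140 in salivary gland, 1.08 for Sp100 in small intestine and 1.09 for Mid1 in macrophages (adjusted p = 0.0772, 0.120 and 0.257). Isg15, a ubiquitin-like protein that interferon induces, differed by 3.45, 1.62 and 1.02 in the 3 tissues, and Irf7, the factor that amplifies interferon, by 4.12, 1.84 and 1.74. The 4 Trim differences past the test in the gland, between 0.99 and 2.23, were each smaller than those of Isg15 and Irf7 there. The difference of Trim30a in small intestine, 1.97, stood beside 1.62 and 1.84 for that pair. Differences between genes were not tested.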

How the data were processed

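Total RNA, 5 µg per sample, was labelled with Cy5 and hybridised to single-colour Agilent arrays (design 026655, annotation mm9), read with Feature Extraction 11.5.1.1 per the file headers. In the scanner files deposited by the authors, each spot has a linear intensity from which the scanner software had taken the background, with no normalisation between arrays. Deposited spot flags mark signal well above background, saturation and outliers. A further deposited table of intensity, its normalisation not given in the sources used here, was an alternative only.

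Control spots and outlier spots (0.434% of 43020) were left out, spots were averaged per probe on the log2 scale, and log2 values were expressed relative to the 75th percentile of the array. That percentile came from all probes, except in salivary gland, where fewer than 50% were detected and it came from those detected on every one of the 8 arrays. Probes were named through RefSeq GRCm38.p6 (27508 by accession, 3544 by symbol, 404 by synonym, 7973 unmatched and left out). The brightest probe over 20 arrays stood for a gene. A gene entered the test with a minimum of 4, 3 and 3 arrays well above background in the 3 tissues. limma 3.58.1 in R 4.3.3 compared genotypes within each tissue over all genes, with Benjamini-Hochberg adjustment and a threshold of 0.05. The procedure was tested on simulated data. The number of arrays limits the precision.

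Mouse numbers were checked for pairing: deviations of same-numbered mice correlated at 0.188 to 0.399 in small intestine and 0.285 to 0.662 in macrophages, where they pair the samples by age, and at -0.524 to 0.423 in salivary gland, where they do not. Values with the mouse number as a replicate block are given where they change a call.

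Members and gene lists were chosen with earlier results of these data known. Genes named in the text are the members past the test, every cluster and antiviral member, the 3 with the smallest adjusted p not past it in each tissue, the largest change of each other role list, and up to 4 genes of each partner list. Other members named (Trim8, Trim16, Trim27, Trim62 and Trim71) were chosen after their values were seen, for groups that did not overlap or for levels that did not move. The rest, such as Trim43c and Trim63, are named only for their detection. Alternatives tried were background correction, percentile set, scaling, quantile normalisation, filters, probe choice, slide, pairing, pooled fit, the authors' table and leaving out each array.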

Additional observations from a re-analysis of the deposited data

Results flagged for a closer look

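Within groups of 4 arrays, 2 values of Trim56 in salivary gland lay far from the rest of their group: Irgm1-/- replicate 3 at -1.11 and WT replicate 2 at -1.63, each with a gap to its nearest neighbour beyond the 95% limit of Dixon's test. Chance gives about 1 such value in 20 groups, and 28 groups were examined.

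Genotype differences of 5 members were unequal between tissues in the fit of all 20 arrays. The difference in salivary gland exceeded that in macrophages by 2.27 for Trim47, 1.96 for Trim35, 1.65 for Trim12a and 1.04 for Trim3, and was 0.82 smaller for Trim27 (-0.82). It exceeded that in small intestine by 1.62 for Trim12a. For Trim47 the difference in small intestine exceeded that in macrophages by 1.50. Among the WT glands, Trim35 and Trim12a were well above background only in replicate 1.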

How the results depend on the processing

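The 4 members past the test in salivary gland became 1 under normexp background correction, 1 with detection required on every array (fewer genes tested), and 2 to 6 when 1 array was left out, with 2 reached without Irgm1-/- replicate 2. The 1 in small intestine became 0 under normexp, with the replicate block and in the fit of all 20 arrays, and 0 to 1 when 1 array was left out. The 0 in macrophages became 8 with the replicate block, 4 in the fit of all 20 arrays, and 0 to 1 when 1 array was left out, the 1 being Trim30a without WT replicate 2. Between tissues, the 1 member for gland minus intestine became 0 under normexp, with the other percentile set, with dim probes unfiltered and with probes averaged. For gland minus macrophages 5 became 3 under normexp and 3 with no filter. For intestine minus macrophages 1 became 0 under normexp and 0 with no filter, and 2 with the other percentile set, with the mean of all probes and with the animal as a random block. Trim25 in salivary gland reversed to 0.66 with the mean of its probes. Trim34a in salivary gland was past the test under every alternative in which it was fitted (adjusted p = 6.15e-05 to 0.0275 in limma). With detection required on every array it was not tested. In other cases the cause was not tested. The mouse number as a replicate block left 4 members past the test in salivary gland, where the numbers do not pair mice.

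Counts over all genes also moved: 275 in salivary gland became 637 with a slide block and 663 with a mouse number block, 148 with no filter, 123 with detection on every array, 156 with median scaling and 151 without Irgm1-/- replicate 2. In macrophages 58 became 1332 with the mouse number as a block, 914 in the fit of all 20 arrays, 355 under normexp, 240 with median scaling, 140 with quantile normalisation and 29 with the other percentile set. In small intestine 32 became 5 under normexp and 1 with that block. Median scaling moved the median difference of all genes from 0.06 to 0.18 in salivary gland and from -0.10 to -0.20 in small intestine. Members near background, including most of the cluster in salivary gland, are limited by signal over background.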
